A study of Mus musculus with 18 samples.

Results

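The 8 genes that encode the constant part of the immunoglobulin heavy chains (Igha, Ighm, Ighd, Ighg1, Ighg2b, Ighg2c, Ighg3 and Ighe), the joining chain gene Jchain and the epithelial transport receptor gene Pigr were described in mouse lacrimal glands (LGs). These 10 genes were chosen by symbol among the 54232 genes counted, by no threshold on their values but with earlier results of these data known. Whole LGs of male BALB/cJ mice (BALB/c) and male NOD.B10Sn-H2b/J mice (NOD.H-2b), a model of Sjögren's syndrome, were profiled by bulk RNA-seq at 2, 4 and 6 months (2M, 4M and 6M). Each of the 6 groups held 3 mice, and none was treated. BALB/c is another inbred strain and not a littermate control, so strain and disease cannot be told apart.

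The class of an antibody is set by its heavy constant gene. Plasma cells in the LG secrete mostly IgA, which the joining chain links into polymers and which the polymeric immunoglobulin receptor, the product of Pigr, carries across the acinar and ductal epithelium into tears. IgM can take the same route, whereas IgG and IgE bind neither the joining chain nor this receptor, and IgD together with IgM marks naive B cells.

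The 8 heavy constant genes lie side by side on the minus strand of chromosome 12 (GRCm38, GENCODE M21), from Igha at chr12:113254830-113260236, through Ighe, Ighg2c, Ighg2b, Ighg1, Ighg3 and Ighd, to Ighm at chr12:113418558-113422730. Jchain lies on chromosome 5 (chr5:88519809-88527891, minus strand) and Pigr on chromosome 1 (chr1:130826684-130852249, plus strand). The coding bases that only the secreted form of Igha and Ighm carries are shown because they encode the tail to which the joining chain is bound, with the codon of its next-to-last amino acid, a cysteine, in capitals.
Igha (chr12:113258771-113258829): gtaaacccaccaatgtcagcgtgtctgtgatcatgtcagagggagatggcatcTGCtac
Ighm (chr12:113420870-113420928): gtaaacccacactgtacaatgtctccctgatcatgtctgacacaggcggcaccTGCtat
Both runs are 59 bases long and lie in the exon shared with the membrane form, just past its splice site. In the 4 Ighg genes the same stretch is 5 bases long, and in Ighe it is 23 bases with no such cysteine codon.

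The hinge exons of the Ighg genes are shown because they tell the subclasses apart, with their in-frame cysteine codons in capitals.
Ighg1 (chr12:113329844-113329882): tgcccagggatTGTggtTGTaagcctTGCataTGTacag
Ighg2b (chr12:113307261-113307326): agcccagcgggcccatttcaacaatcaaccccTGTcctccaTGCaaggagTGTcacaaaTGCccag
Ighg2c (chr12:113288263-113288325): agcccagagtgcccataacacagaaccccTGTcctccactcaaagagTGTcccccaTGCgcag
Ighg3 (chr12:113360529-113360576): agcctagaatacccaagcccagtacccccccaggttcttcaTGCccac
Over the coding bases of the secreted forms, Ighg2b and Ighg2c were 85.6% identical, and Ighg1 and Ighg3 were 73.1% identical to each other. Exact windows of 75 bases shared with another gene made up 0.768% of Ighg2b, 0.480% of Ighg2c and 0.574% of Ighg3, and no such window was found in Ighg1, Igha, Ighm, Ighd, Ighe or Jchain. The reference has the Ighg2c allele, which NOD mice carry too, whereas BALB/c mice carry the allele Ighg2a in its place. For Ighg2c in BALB/c, a lower level and a poorer match of reads to the reference therefore cannot be told apart, and alleles at the other heavy constant genes also differ between the strains.

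The deposited values are counts per gene, and levels are given as CPM, a gene's count per 1000000 counts of the TMM-scaled library. Totals ranged from 49480781 to 103936830 counts per mouse. Genes of epithelial structure were present in all 6 groups (2948 to 3067 CPM in sum in BALB/c at 2M over the list of 20), whereas in each group at least 5 of 12 salivary gland markers had no count. The sum of these 12 markers was 772 to 1460 CPM in BALB/c and 89.9 to 291 CPM in NOD.H-2b. Nearly all of it came from Car6, a gene that the LG also makes. Car6 was at 771 to 1459 CPM in BALB/c and at 89.0 to 290 CPM in NOD.H-2b. The part of this sum in the results below was not tested. In whole glands, a change in the number of cells of a type and a change in RNA per cell cannot be told apart.

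At each age 7 of the 10 genes were higher in NOD.H-2b and none was lower (edgeR quasi-likelihood test, FDR under 0.05 and at least 2-fold). Among all genes tested, 12.0% were higher at 2M, 15.6% at 4M and 18.8% at 6M, and 3.76%, 4.72% and 6.03% were lower. These shares need both thresholds. At an unadjusted p under 0.05 alone, 8199 of 17200, 8819 of 17722 and 10562 of 17750 genes differed, in either direction. Counts by the FDR alone, given below for lists of genes, have no share over all genes beside them. DESeq2 called 7, 8 and 7 of the 10 higher and none lower, and at an unadjusted p under 0.05 only Pigr at 4M was lower in edgeR. Igha, Ighm, Ighd, Ighg2b, Ighg2c and Jchain were called at all 3 ages, with Pigr as the seventh at 2M and Ighg3 as the seventh at 4M and 6M. Ighg1 was tested at all 3 ages and was not called in any. Ighe was too low to be tested at any age, and Ighg3 too low at 2M. At 2M, the count of 7 dropped to 4 without BALB/c mouse 2. The plot of every mouse's level shows the 10 genes on one scale.

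**Figure D1:**
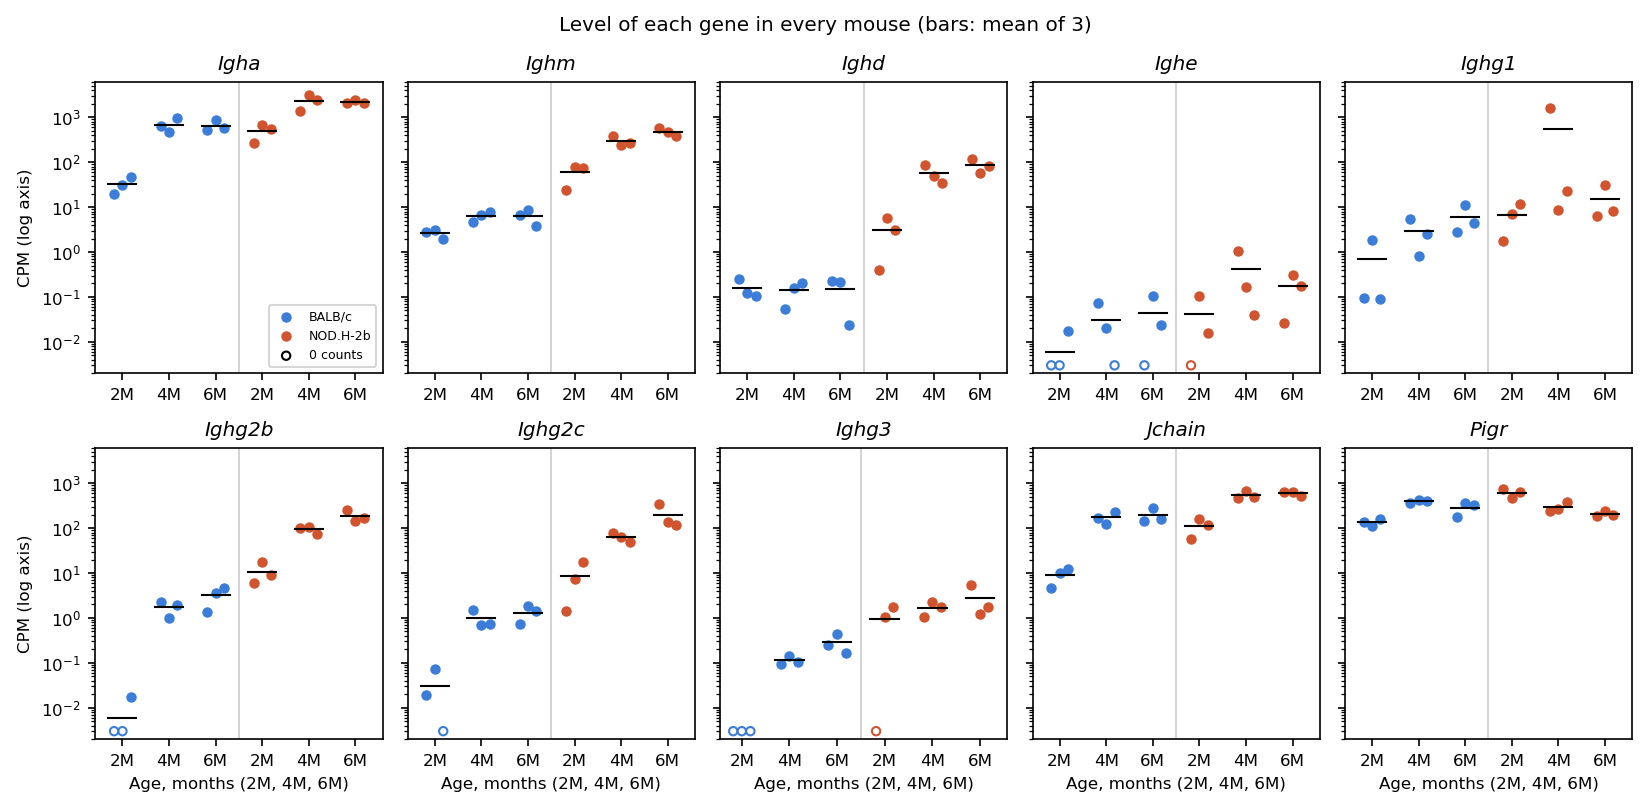
Level of each of the 10 genes in CPM on a log axis, in BALB/c (blue) and NOD.H-2b (red) at 2M, 4M and 6M. Points are mice, black bars are means of 3 mice, and open points mark mice with 0 counts. Igha and Jchain rose steeply in BALB/c between 2M and 4M, Ighd was at most 0.248 CPM in any BALB/c mouse, and Ighg1 reached 1629 CPM in 1 NOD.H-2b mouse at 4M.

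Igha, the heavy chain gene of IgA, was at 20.1, 31.6 and 47.8 CPM in the BALB/c mice at 2M and at 265, 668 and 555 CPM in those of NOD.H-2b. By 4M the BALB/c mice had 642, 480 and 964 CPM, against 1393, 3141 and 2500 CPM for NOD.H-2b. The 6M mice had 519, 877 and 585 CPM in BALB/c, against 2065, 2506 and 2063 CPM for NOD.H-2b. The strains did not overlap at any age, and the 4M BALB/c mice lay within or above the range of the 2M NOD.H-2b mice. The strain difference on the log2 scale was 3.95 (SE 0.57, adjusted p = 0.00753) at 2M, 1.76 (SE 0.41, adjusted p = 0.0233) at 4M and 1.78 (SE 0.20, adjusted p = 6.55e-05) at 6M. The call at 4M was lost without BALB/c mouse 1 or NOD.H-2b mouse 2 or 3 of that age, with an adjusted p of up to 0.0788, and without a filter on low counts (adjusted p = 0.0574).

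Jchain was at 4.53, 9.91 and 12.3 CPM in BALB/c at 2M and at 58.0, 156 and 116 CPM in NOD.H-2b. Mice of 4M had 165, 125 and 231 CPM in BALB/c, against 467, 686 and 485 CPM for NOD.H-2b. Those of 6M had 148, 278 and 156 CPM in BALB/c, against 637, 652 and 527 CPM for NOD.H-2b. As for Igha, the strains did not overlap at any age, and the log2 difference was 3.67 (SE 0.60, adjusted p = 0.0111), 1.66 (SE 0.28, adjusted p = 0.00596) and 1.68 (SE 0.25, adjusted p = 0.00109) at 2M, 4M and 6M. At 2M the adjusted p was 0.0507 without BALB/c mouse 2.

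The gap between the strains narrowed for both genes from 2M to 6M. The change of the strain difference was -2.16 on the log2 scale for Igha (SE 0.60, adjusted p = 0.0299) and -1.98 for Jchain (SE 0.59, adjusted p = 0.0394), where 9.09% of 19117 genes changed in this direction and 7.04% in the other. Of the 10 genes, 3 were called with a narrower or turned difference, the third being Pigr, and none with a wider one, where 2 (Ighm and Ighd) had an unadjusted p under 0.05 and were called by DESeq2. Leaving out 1 mouse ended the call in 7 of 18 cases for Igha and in 8 of 18 for Jchain, with an adjusted p of at most 0.0841, and the count of 3 was then 1 in 7 cases and 2 in the other. These were mice 1 and 2 of BALB/c and 2 and 3 of NOD.H-2b at 2M, mouse 2 of BALB/c at 6M and mice 1 and 3 of NOD.H-2b at 6M, and for Jchain also NOD.H-2b mouse 2 at 6M. Without a filter on low counts the adjusted p was 0.0520 for Igha and 0.0693 for Jchain.

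Per kb of exon, the joining chain stood at a lower ratio to the IgA and IgM heavy chains in NOD.H-2b. The log2 ratio of Jchain to the sum of Igha and Ighm at 2M was -2.02 ± 0.28 (SD, n = 3) in BALB/c, compared with -2.31 ± 0.10 in NOD.H-2b. It was -1.93 ± 0.06 compared with -2.23 ± 0.26 at 4M, and -1.73 ± 0.12 compared with -2.18 ± 0.06 at 6M. The strains overlapped at 2M and 4M and did not at 6M. Over the 3 ages the difference was -0.35, with an adjusted p of 0.00486 in a two-sided exact permutation test of strain within age, adjusted over 17 shares and ratios.

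Pigr did not follow Igha and Jchain. It was at 139, 113 and 161 CPM in BALB/c at 2M, the lowest values of any group, and at 761, 462 and 635 CPM in NOD.H-2b, the highest. By 4M it was at 371, 427 and 407 CPM in BALB/c, compared with 243, 272 and 380 CPM in NOD.H-2b. The 6M values were 175, 357 and 327 CPM in BALB/c, compared with 184, 246 and 198 CPM in NOD.H-2b. The strains were apart at 2M and overlapped at 4M and 6M. The log2 difference was 2.21 at 2M (SE 0.25, adjusted p = 0.00226), -0.42 at 4M (SE 0.16, adjusted p = 0.0690) and -0.41 at 6M (SE 0.27, adjusted p = 0.246), so the receptor gene was called higher at 2M only among these 3 fits. The change from 2M to 6M was -2.62 (SE 0.38, adjusted p = 0.00160) and passed the threshold with each mouse left out in turn (adjusted p at most 0.00706).

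Pigr moved in opposite directions with age in the strains between 2M and 4M. It rose in BALB/c by 1.55 on the log2 scale (SE 0.14, adjusted p = 0.00322), and fell by 1.06 in NOD.H-2b (SE 0.24, adjusted p = 0.0396). The rise was called with every mouse left out in turn. The fall was not called without NOD.H-2b mouse 1 or 3 of 2M or 1 or 2 of 4M, with an adjusted p of up to 0.128, or without a filter on low counts (adjusted p = 0.103).

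The summed level of 20 genes of epithelial structure moved in part with Pigr in NOD.H-2b, from 2732 to 3069 CPM at 2M to 2159 to 2700 CPM at 4M and 1672 to 2097 CPM at 6M, and lay between 2708 and 3068 CPM in all BALB/c mice. Measured against the mean log2 CPM of these genes, Pigr at 2M was at 1.61 ± 0.30 (SD, n = 3) in BALB/c, compared with 3.39 ± 0.27 in NOD.H-2b. It was at 2.86 ± 0.09 compared with 2.68 ± 0.19 at 4M, and at 2.60 ± 0.62 compared with 2.42 ± 0.11 at 6M. The strains were thus apart at 2M on this scale too, and overlapped later. Averaged over the ages the difference of 0.48 did not pass (exact permutation test, adjusted p = 0.114).

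The log2 ratio of Pigr to Jchain, per kb, fell with age in both strains. It went from 3.37 ± 0.77 at 2M through 0.58 ± 0.48 at 4M to -0.12 ± 0.44 at 6M in BALB/c, and from 1.90 ± 1.08 through -1.55 ± 0.49 to -2.22 ± 0.22 in NOD.H-2b. Over the 3 ages the difference of NOD.H-2b from BALB/c was -1.90 (exact permutation test, adjusted p = 0.00425), without overlap at 4M and 6M. From 2M to 6M it fell by 3.80 (exact permutation test within strain, adjusted p = 0.0213, with 0.005 the smallest unadjusted p of that test).

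**Figure D2:**
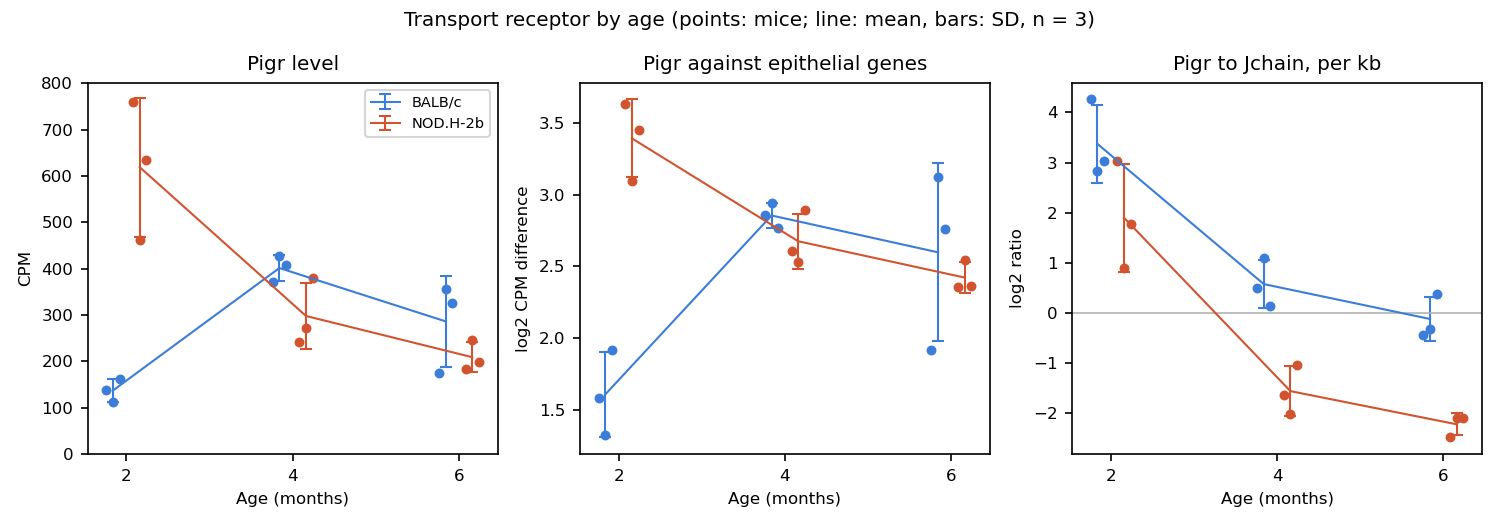
Pigr against age in months in BALB/c (blue) and NOD.H-2b (red), as CPM (left), as log2 CPM less the mean log2 CPM of 20 epithelial structure genes (middle) and as log2 ratio to Jchain per kb (right). Points are mice, lines join means and bars are SD (n = 3). In the left panel the NOD.H-2b mice at 2M (462 to 761 CPM) lie above the BALB/c mice (113 to 161 CPM). At 4M and 6M the strains overlap there, and the middle panel shows the same. In the right panel the strains overlap at 2M, and the NOD.H-2b mice lie below the BALB/c mice at 4M and 6M.

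Ighm, the heavy chain gene of IgM, was low in BALB/c at every age. It was at 2.77, 3.16 and 1.99 CPM in BALB/c at 2M and at 24.5, 78.0 and 76.3 CPM in NOD.H-2b mice. The 4M values were 4.70, 6.66 and 7.68 CPM against 377, 239 and 264 CPM, and at 6M 6.54, 8.52 and 3.86 CPM against 590, 478 and 384 CPM. No NOD.H-2b mouse overlapped with a BALB/c mouse, and the log2 difference was 4.54 (SE 0.65, adjusted p = 0.00717), 5.53 (SE 0.29, adjusted p = 7.33e-05) and 6.29 (SE 0.35, adjusted p = 1.64e-05) at 2M, 4M and 6M. The change of this difference from 2M to 6M was 1.76 (SE 0.62), with an adjusted p of 0.0711 in edgeR, which did not pass.

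Ighd, the heavy chain gene of IgD on naive B cells, was close to the detection limit in BALB/c. It had 13, 7 and 6 counts there at 2M, 3, 8 and 14 at 4M and 21, 10 and 1 at 6M. In NOD.H-2b it was at 0.394, 5.80 and 3.14 CPM at 2M, at 86.4, 49.1 and 35.1 CPM at 4M and at 119, 58.2 and 81.3 CPM at 6M. The log2 difference was 8.59 at 4M (SE 0.63, adjusted p = 0.000405) and 8.98 at 6M (SE 0.51, adjusted p = 4.59e-05). At 2M it was 4.33 (SE 1.21, adjusted p = 0.0448). That call was lost without any of the 3 BALB/c mice or without NOD.H-2b mouse 2 or 3 (adjusted p up to 0.154) and without a filter on low counts (adjusted p = 0.0881). Per kb, the log2 ratio of Ighd to Ighm in NOD.H-2b was -4.77 ± 1.10 (SD, n = 3) at 2M, -2.45 ± 0.42 at 4M and -2.54 ± 0.44 at 6M. In BALB/c it was -4.05 ± 0.57, -5.55 ± 0.57 and -5.63 ± 1.03, so the strains overlapped at 2M and were apart later.

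Genes of B cells moved with Ighm and Ighd. The list of 15 summed to 7.25 to 13.3 CPM over the 9 BALB/c mice, and in NOD.H-2b to 12.3 to 66.5 CPM at 2M, 268 to 587 CPM at 4M and 413 to 813 CPM at 6M. At 4M and 6M all 15 were called, upward, with a median log2 difference of 7.28 and 8.70 beside 0.00 over all genes, and 4 of 8 tested at 2M. Over all genes tested, 12.0%, 15.6% and 18.8% were called higher at 2M, 4M and 6M. Cd22, an inhibitory receptor of B cells, differed by 8.60 at 6M (SE 0.56) and Cd79b, a chain of the B cell receptor, by 6.75 (SE 0.55). Cd22 and Cd79b were called at all 3 ages. NOD.H-2b mouse 1 at 2M had the lowest B cell sum of that strain (12.3 CPM), together with the lowest Igha, Ighm, Ighd and Jchain, and the highest Pigr.

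The IgG genes were a small part of the heavy chain counts in BALB/c. Ighg2b had 0, 0 and 1 counts in the BALB/c mice at 2M and 364, 1134 and 575 in NOD.H-2b, a ratio of 1795 by the summed counts (exact 95% interval 322 to 70930, counting error only; adjusted p = 0.000972 in edgeR). At 4M it was at 2.30, 1.02 and 1.91 CPM in BALB/c and at 102, 105 and 74.6 CPM in NOD.H-2b mice. The 6M levels were 1.35, 3.68 and 4.54 CPM in BALB/c, compared with 250, 143 and 170 CPM in NOD.H-2b. The strains were far apart at every age, by 5.74 on the log2 scale at 4M (SE 0.32, adjusted p = 8.49e-05) and by 5.99 at 6M (SE 0.56, adjusted p = 0.000658).

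Ighg2c, with the limit on alleles given above, had 1, 4 and 0 counts in the 2M BALB/c mice and a level of 1.43, 7.27 and 17.7 CPM in NOD.H-2b. Levels of 1.51, 0.691 and 0.731 CPM in BALB/c stood against 77.9, 63.7 and 49.9 CPM in NOD.H-2b by 4M. At 6M it was at 0.741, 1.81 and 1.40 CPM against 340, 139 and 116 CPM. These levels differed by 8.13 at 2M (SE 1.80, adjusted p = 0.0267), 6.04 at 4M (SE 0.35, adjusted p = 0.000109) and 7.36 at 6M (SE 0.73, adjusted p = 0.00102) on the log2 scale. Without any of the 3 BALB/c mice or NOD.H-2b mouse 2 the difference at 2M was not called (adjusted p up to 0.104).

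Ighg3 had no count in BALB/c at 2M and 0, 70 and 109 counts in NOD.H-2b, at least 51.7-fold higher by the summed counts against a floor of 3 counts over the group. That fold pools the mice of each group and takes no account of the spread between them. With 0 counts in 1 NOD.H-2b mouse, the strains overlapped at that age. At 4M Ighg3 was at 0.0921, 0.142 and 0.104 CPM in BALB/c and at 1.07, 2.30 and 1.74 CPM in NOD.H-2b, and at 6M at 0.247, 0.447 and 0.164 CPM against 5.37, 1.22 and 1.79 CPM. By its mean per kb it was the lowest of the 4 IgG genes in each of the 6 groups. The log2 difference was 3.91 (SE 0.41, adjusted p = 6.65e-05) at 4M and 3.34 (SE 0.67, adjusted p = 0.00469) at 6M.

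Ighg1 was the IgG gene with no called strain difference. It was at 0.0955, 1.90 and 0.0882 CPM in BALB/c at 2M and at 1.72, 7.12 and 11.7 CPM in NOD.H-2b mice. By 4M the BALB/c mice had 5.47, 0.833 and 2.55 CPM, against 1629, 8.62 and 23.4 CPM for NOD.H-2b. The 6M mice had 2.80, 11.2 and 4.51 CPM in BALB/c, against 6.50, 30.5 and 8.34 CPM for NOD.H-2b. The strains overlapped at 2M and 6M, and a single NOD.H-2b mouse at 4M lay far above every other mouse. The log2 difference was 3.34 at 2M (SE 1.37, adjusted p = 0.134), 7.55 at 4M (SE 2.87, adjusted p = 0.110) and 1.36 at 6M (SE 0.89, adjusted p = 0.266). A fit of all 18 mice called it at 4M (adjusted p = 0.00642), where the other two mice of the group were at 23.4 CPM or less.

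In that mouse, NOD.H-2b mouse 1 at 4M, Ighg1 had 107681 counts and made up 44.4% of the CPM of the 8 heavy constant genes, while the highest value among the other 17 mice was 30.5 CPM. Its sum over the 8 genes, 3668 CPM, was close to the 3610 and 2949 CPM of the other two mice of its group, and its Igha (1393 CPM) was the lowest of that group. Among immunoglobulin variable genes at 20 CPM or more in this mouse, a set looked at after its Ighg1 value was seen, Ighv1-81 stood out most, at 73.0 CPM against at most 20.4 CPM in the other 17 mice. The 115 heavy variable genes together were at 804 CPM, against 891 and 680 CPM in the other two mice.

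Ighe, the heavy chain gene of IgE, was at or near 0 throughout. It had 0, 0 and 1 counts in BALB/c and 0, 7 and 1 in NOD.H-2b at 2M, 4, 1 and 0 against 69, 11 and 2 at 4M, and 0, 5 and 1 against 2, 18 and 10 at 6M. The strains overlapped at every age, and the highest value (1.04 CPM) came from the mouse with the high Ighg1.

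**Figure D3:**
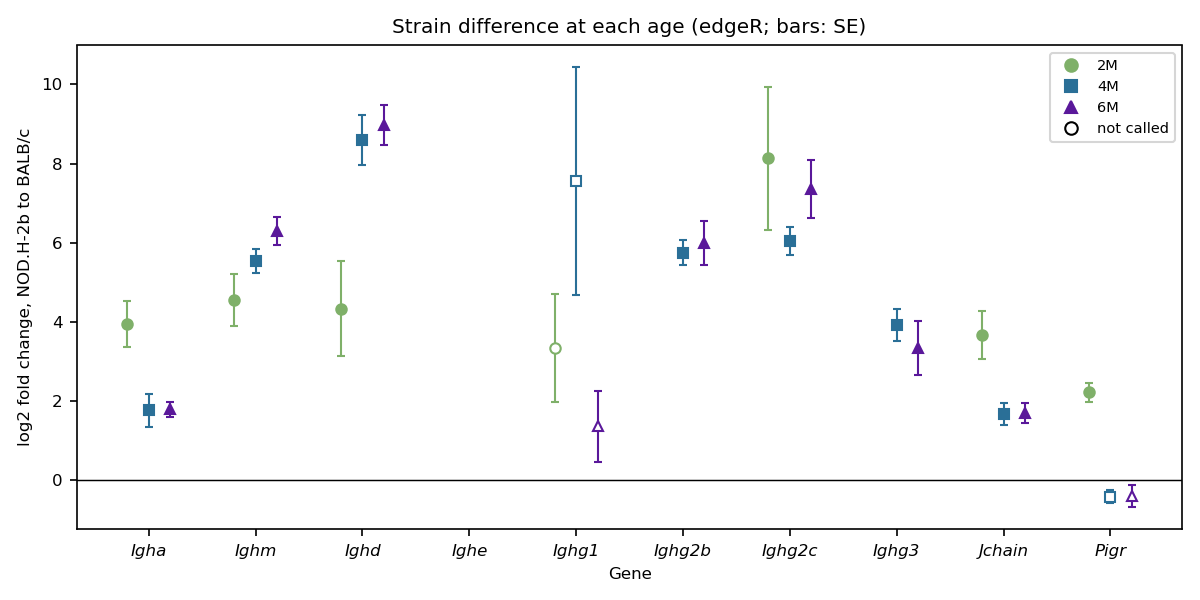
Log2 fold change of NOD.H-2b to BALB/c at 2M (circles), 4M (squares) and 6M (triangles) for each gene, from edgeR fits of 6 mice, with bars for SE and open symbols for differences that were not called. Ighe, Ighg3 at 2M (not tested) and Ighg2b at 2M (1 count in BALB/c) are not drawn. The differences for Igha and Jchain are smaller at 4M and 6M than at 2M, and those for Pigr lie just below 0 at the later ages.

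The mix of isotypes was given per kb of exon, as shares of the 8 heavy constant genes. At 2M Igha took 86.1% ± 6.7 (SD, n = 3) in BALB/c, compared with 80.8% ± 4.4 in NOD.H-2b. It took 97.6% ± 0.54 compared with 65.9% ± 27 at 4M, and 96.9% ± 0.33 compared with 61.5% ± 8.8 at 6M. Over the 3 ages the Igha share differed by -24.1 percentage points, NOD.H-2b less BALB/c (exact permutation test of strain within age, adjusted p = 0.00425). The strains overlapped at 2M and were apart at 4M and 6M.

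The share that Igha lacked in NOD.H-2b was held by Ighm, Ighd and the Ighg genes. Ighm took 1.34% ± 0.50 in BALB/c, compared with 11.4% ± 2.3 in NOD.H-2b, at 4M, and 1.32% ± 0.41 compared with 18.8% ± 1.8 at 6M. The 4 Ighg genes together took 0.998% ± 0.59 and 20.5% ± 24 at 4M, where the high Ighg1 of a single mouse set the spread, and 1.75% ± 0.55 and 16.3% ± 6.3 at 6M. Ighd took 3.33% ± 1.0 in NOD.H-2b and 0.0325% ± 0.027 in BALB/c at 6M. Over the 3 ages the strain difference was 9.87 percentage points for Ighm (adjusted p = 0.00486), 12.5 for the Ighg genes (adjusted p = 0.00425) and 1.76 for Ighd (adjusted p = 0.00691), each by the exact permutation test. The Ighg difference was 7.79 without NOD.H-2b mouse 1 of 4M and 7.68 with Ighg2c left out, and the Ighm difference was 5.93 with the length of the secreted transcript. At 2M the BALB/c Ighm share of 11.1% ± 5.2 rested on 113 to 176 Ighm counts and overlapped with the 13.1% ± 1.9 in NOD.H-2b.

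**Figure D4:**
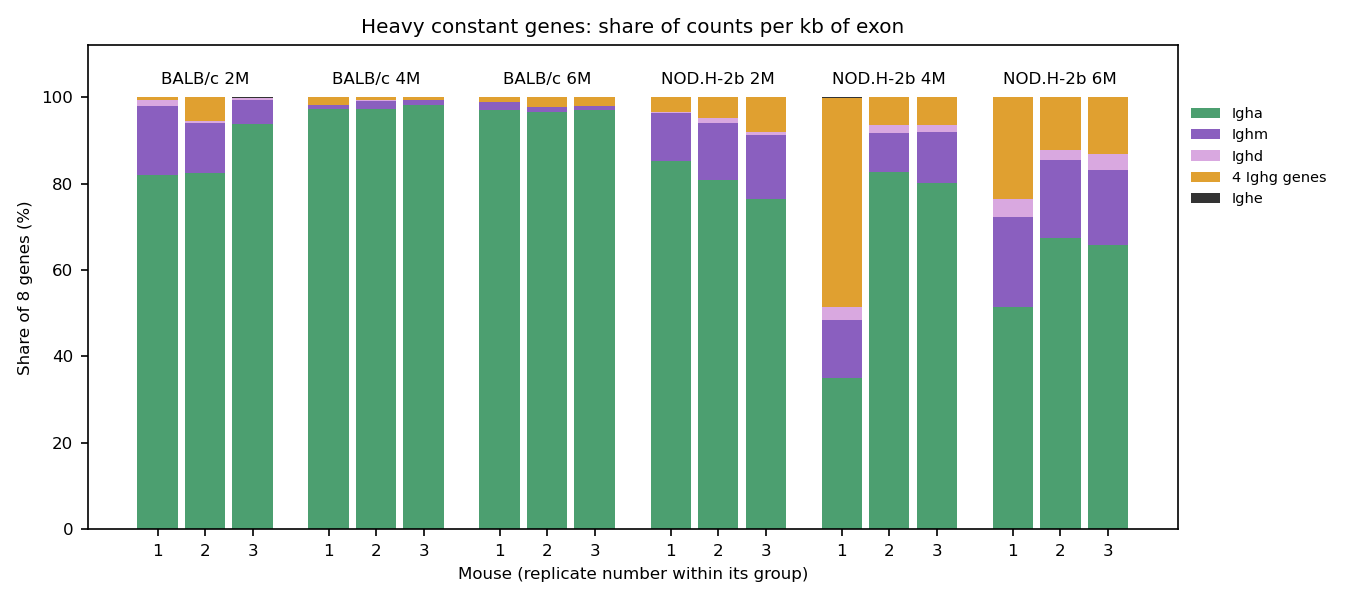
Share (%) of the 8 heavy constant genes, counts per kb of exon, that came from Igha, Ighm, Ighd, the 4 Ighg genes and Ighe, with 1 bar per mouse. Igha holds at least 96.5% in all BALB/c mice at 4M and 6M and 51.5% to 67.4% in NOD.H-2b at 6M, and in NOD.H-2b mouse 1 at 4M the Ighg genes hold 48.6%.

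Within the Ighg genes, the share of Ighg1 was lower and that of Ighg2c higher in NOD.H-2b. At 2M Ighg1 took 82.9% ± 11 in BALB/c, compared with 18.5% ± 2.0 in NOD.H-2b. It took 39.7% ± 13 compared with 34.1% ± 46 at 4M, and 48.7% ± 11 compared with 3.22% ± 3.2 at 6M. The BALB/c values at 2M rest on 6 to 110 IgG counts per mouse. Over the ages the difference of NOD.H-2b from BALB/c was -38.5 percentage points for the Ighg1 share (adjusted p = 0.0115) and 25.7 for the Ighg2c share (adjusted p = 0.0115, exact permutation tests). The strains overlapped at 4M for the Ighg1 share, and at 2M and 4M for the Ighg2c share. Because BALB/c carries Ighg2a, the Ighg2c difference cannot be told apart from a poorer match of its reads to the reference. A poorer match would also raise the BALB/c Ighg1 share, since both are shares of the same 4 genes. With Ighg2c left out of the shares, Ighg1 was still called lower in NOD.H-2b. The part of alleles at the other Ighg genes was not tested. The Ighg2b share differed by 13.5 points (adjusted p = 0.0938) per kb of all exons. It passed without NOD.H-2b mouse 1 of 4M (adjusted p = 0.00785), without division by length (21.5 points, adjusted p = 0.0273), with Ighg2c left out of the shares (43.0 points, adjusted p = 0.00550) and when the length of the secreted transcript was used (21.7 points, adjusted p = 0.0255), a length chosen after the data were seen because the annotated Ighg2c lacks the long last exon of the other membrane forms. By exon length Ighg2c led in NOD.H-2b at 6M with 63.4% against 32.9% for Ighg2b, and by secreted length the 2 were level at 46.6% and 48.0%.

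**Figure D5:**
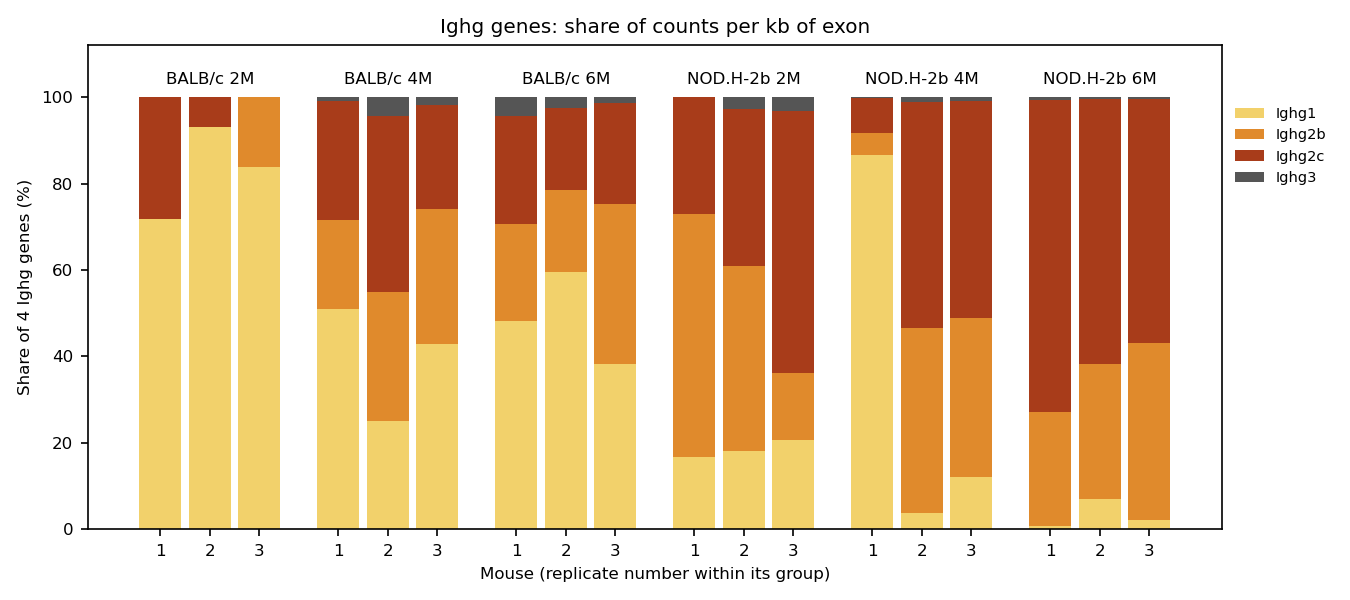
Share (%) of the 4 Ighg genes, counts per kb of exon, with 1 bar per mouse. Ighg1 holds 25.1% or more in every BALB/c mouse and at most 20.6% in the NOD.H-2b mice other than mouse 1 at 4M, where it holds 86.6%.

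Read per kb of exon, the order of levels changed between the groups. In BALB/c at 2M Pigr (34.2 CPM per kb) was above Igha (12.4) and Jchain (3.55), without overlap between neighbours in that order. In BALB/c at 4M Igha (261) led Pigr (99.8) and Jchain (68.9), again without overlap, and Ighm (3.37) followed. In NOD.H-2b at 2M Igha (186) and Pigr (154) overlapped at the top. At 6M in NOD.H-2b the order was Igha (829), Ighm (257), Jchain (241), Ighg2c (150), Ighg2b (70.1), Pigr (51.9) and Ighd (45.3 CPM per kb). There Igha was above all others, and each neighbouring pair from Ighm to Ighd overlapped. Part of this order depends on the length used. By secreted transcript length (for Jchain and Pigr the form with most exons), Jchain (124) was above Pigr (104 CPM per kb) in BALB/c at 4M. At 6M in NOD.H-2b Jchain (435) was then above Ighm (324), and Ighd (107) above Pigr (54.3). In BALB/c at 2M Pigr (35.7) and Igha (30.2) were closer. Overlap between mice was judged by exon length only.

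With age, most of the change fell between 2M and 4M. In BALB/c 6 of 7 tested genes were called higher at 4M (2.07% of all genes tested were) and none lower (0.300%), also by DESeq2 or at an unadjusted p under 0.05. They were Igha (log2 change 4.39, SE 0.51, adjusted p = 0.0156), Jchain (4.28, SE 0.49, adjusted p = 0.0153), Pigr, Ighm (1.27, SE 0.21, adjusted p = 0.00509), Ighg2c and Ighg2b, these IgG genes from at most 4 counts per mouse at 2M. Ighd and Ighg1 did not join them: Ighd was too low to be tested and Ighg1 had an adjusted p of 0.435. The Igha call was lost without BALB/c mouse 2 of 2M (adjusted p = 0.0812) and the Jchain call without mouse 2 or 3 of 2M (adjusted p up to 0.0779). In a fit of all 18 mice Ighm (adjusted p = 0.153) and Ighg2c (adjusted p = 0.222) were not called, which left 4 genes, as did leaving out BALB/c mouse 2 of 2M.

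In NOD.H-2b 5 of 9 tested genes were called higher at 4M, beside 5.97% of all genes, and 1, Pigr, lower, beside 0.625%. The genes that rose were Igha (2.24, SE 0.48, adjusted p = 0.0403), Ighm (2.30, SE 0.51, adjusted p = 0.0440), Ighd (4.18, SE 0.90, adjusted p = 0.0409), Ighg2b (3.12, SE 0.45, adjusted p = 0.0172) and Jchain (2.31, SE 0.42, adjusted p = 0.0278). The count of 5 was 1 without a filter on low counts, 2 without mouse 2 of 2M, 1 without mouse 3 of 4M and 0 without mouse 3 of 2M, mouse 1 of 4M or mouse 2 of 4M. From 4M to 6M none of 8 genes tested in BALB/c and none of 10 in NOD.H-2b was called, beside 0.0180% of genes called in each direction in BALB/c and 0.00555% (higher) and 0.00% (lower) in NOD.H-2b. None of the 8 in BALB/c reached an unadjusted p under 0.05 or was called by DESeq2, and that p was reached by 4 of the 10 in NOD.H-2b: Ighg2b (log2 change 1.01), Ighg2c (1.65) and Ighm (0.74) upward and Pigr (-0.50) downward, and DESeq2 called Ighg2b (1.00, adjusted p = 0.000200).

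Light chains pair with every heavy chain. Of 4 tested light chain constant genes, 4, 3 and 4 were higher in NOD.H-2b at 2M, 4M and 6M, beside 12.0%, 15.6% and 18.8% of all genes tested. Igkc, the kappa constant gene, was at 9.78, 17.4 and 23.2 CPM in BALB/c and 139, 354 and 307 CPM in NOD.H-2b mice of 2M, and at 276, 524 and 347 against 1749.5, 1631 and 1441 CPM in those of 6M. Iglc2 and Iglc3, lambda constant genes, differed by 3.59 (SE 0.33) and 4.24 (SE 0.32) on the log2 scale at 6M. Iglc1, a further lambda constant gene, was not called at 4M and fell by 1.83 from 4M to 6M in BALB/c (SE 0.12, adjusted p = 0.000137 in edgeR). From 2M to 6M the strain difference of 1 of the 4 genes, Igkc, was called as narrower (-1.92), with changes of -1.30 for Iglc2, -0.18 for Iglc3 and 0.07 for Iglc1 that were not called. By the root mean square difference of centred log2 CPM over the 18 mice, among 7647 genes, the 2 genes most like Igha were Jchain (0.216) and Igkc (0.317), followed by Igkv10-96 (0.786), Fgl2 (1.07) and Cd44 (1.20). The same 4 genes after Jchain were nearest to Jchain itself once Igha (0.216) was set aside. Nearest to Ighm were Nlrc5 (0.761) and Ptprc (0.894), the common leukocyte antigen, then H2-Q6, Coro1a and Cmah. Nearest to Pigr were Lpl (0.508), Clmn (0.508), Lzts2 (0.532), Cdh1 (0.537), the epithelial cadherin, and Hist1h2bc (0.538).

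Of 8 genes that define plasma cells, 3, 6 and 4 were higher in NOD.H-2b at 2M, 4M and 6M and none was lower (1, 2 and 2 were by the FDR alone). Over all genes tested, 12.0%, 15.6% and 18.8% were called higher and 3.76%, 4.72% and 6.03% lower. Medians of the 8 were 1.66, 2.20 and 1.65 on the log2 scale beside 0.01, 0.00 and 0.00 over all genes. These 8 genes are part of a list of 16 plasma cell genes that adds genes of protein folding and secretion. In the list of 16 the same numbers were called, the medians were 0.05, 0.03 and -0.20, and 3, 5 and 7 genes were lower by the FDR alone. Slamf7, a surface receptor of plasma cells and other lymphocytes, differed by 3.13 (SE 0.36) at 2M and 3.37 (SE 0.15) at 6M, and Irf4, a transcription factor of plasma cells, by 2.57 (SE 0.40) and 2.75 (SE 0.13). The summed level of the list was 173 to 227 CPM over the 18 mice, most of it from Derl3, at 84.7 to 195 CPM, a gene of protein folding stress that secretory epithelium also uses. Measured against the mean log2 CPM of the list, Igha was higher in NOD.H-2b by 0.91 (adjusted p = 0.0150) and higher at 6M than at 2M by 1.67 (adjusted p = 0.0213, exact permutation tests). At 2M this value for Igha was 4.43 ± 0.21 (SD, n = 3) in BALB/c, compared with 6.58 ± 0.31 in NOD.H-2b. It was 7.16 ± 0.35 compared with 7.32 ± 0.64 at 4M, and 6.97 ± 0.26 compared with 7.38 ± 0.21 at 6M, so the strains were apart at 2M and overlapped later. The differences for Jchain were 0.78 between strains (adjusted p = 0.0131) and 1.89 between ages (adjusted p = 0.0213), again with the strains apart at 2M and overlapping later.

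Of the genes for homing of IgA plasma cells, 6, 7 and 7 of 11 tested were higher in NOD.H-2b at 2M, 4M and 6M, and 1 was lower at 6M. Over all genes tested, 12.0%, 15.6% and 18.8% were higher at these ages, and 6.03% lower at 6M. Cxcr4, a chemokine receptor, differed by 5.07 at 6M on the log2 scale (SE 0.40). The chemokine gene Ccl28 and the gene of its receptor on IgA plasma cells, Ccr10, named after their values were seen, behaved unlike each other. Ccr10 was higher in NOD.H-2b at 2M (log2 difference 3.91, adjusted p = 0.00118 in edgeR) and 6M (1.09, adjusted p = 0.00909), from at most 0.0538 CPM in BALB/c at 2M. Ccl28 was at 279, 258 and 292 CPM in BALB/c and 239, 221 and 203 CPM in NOD.H-2b mice of 2M. By 4M it was at 269, 294 and 259 CPM against 241, 331 and 416 CPM (log2 difference 0.27, adjusted p = 0.300 in edgeR), with overlap. It was at 365, 464 and 418 against 154, 218 and 188 CPM in the mice of 6M, where it was lower in NOD.H-2b (-1.12, adjusted p = 0.000122 in edgeR).

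Signals for IgA switching and plasma cell survival had 5 of 14, 10 of 17 and 10 of 17 tested genes higher and none lower at 2M, 4M and 6M (1, 1 and 3 were lower by the FDR alone), led by Cd40, a receptor on B cells for T cell help (7.47 at 6M, SE 0.46), and Runx3, a factor in IgA switching (3.86, SE 0.21). Of the class switch and somatic mutation genes, 2, 3 and 4 of 11 were higher, among them Batf (4.00 at 6M, SE 0.53). Over all genes tested 12.0%, 15.6% and 18.8% were higher, and 3.76%, 4.72% and 6.03% lower. The median log2 difference of the class switch list was 0.34, 0.52 and 0.44, and 2, 1 and 0 of its genes were lower by the FDR alone. Of the Fc receptors, 7 of 12, 10 of 15 and 11 of 15 were higher, with Fcrl1, a receptor-like gene of B cells (8.39 at 6M, SE 0.52), and Fcgr1, the high-affinity IgG receptor of macrophages (4.00, SE 0.36), in front, and 1 was lower at 6M. Of 3 surrogate light chain genes, which mark B cell precursors, at most 1 could be tested. It was not called at 4M (log2 difference 0.96) and was higher in NOD.H-2b at 6M (1.64). Its rise from 2M to 4M in NOD.H-2b (1.87) and the widening of its strain difference from 2M to 6M (2.40) were called.

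The transcytosis genes, which move the receptor through the cell, did not show a strain difference as large as that of Pigr at 2M. Of 13 tested, none differed 2-fold at 2M, 4M or 6M (median log2 difference 0.00, -0.13 and -0.28), while 3 higher and 3 lower, 1 higher and 5 lower, and 0 higher and 7 lower passed the FDR alone, and 3 had a strain difference that fell from 2M to 6M. Of the signals known to act on Pigr, 9 of 21, 8 of 21 and 10 of 22 were higher in NOD.H-2b and none was lower, while 2 at each age were lower by the FDR alone. The cytokine gene Tnf differed by 4.59 (SE 0.36) at 2M and 4.18 (SE 0.35) at 6M, and Il4ra, a subunit of the interleukin 4 receptor, by 2.06 (SE 0.15) and 3.90 (SE 0.23). None of the 20 tested in BALB/c was called from 2M to 4M, where Pigr rose, beside 2.07% of all genes higher and 0.300% lower. By the FDR alone 7 were higher there. In NOD.H-2b, where Pigr fell, 1 of 21 was called, upward, beside 5.97% of all genes higher and 0.625% lower. By the FDR alone 5 were higher and 1 lower. Whether these signals had a part in the changes of Pigr was not tested. Among 20 epithelial structure genes, 3 were higher and 1 lower at 2M, 1 higher and 2 lower at 4M and 2 higher and 1 lower at 6M. Over all genes tested 12.0%, 15.6% and 18.8% were higher and 3.76%, 4.72% and 6.03% lower. By the FDR alone 9 were higher and 5 lower at 2M, 1 higher and 10 lower at 4M and 2 higher and 15 lower at 6M (median log2 difference 0.08, -0.30 and -0.48). The shares over all genes by the FDR alone were not counted and would be larger than those above. At 6M 10562 of 17750 genes had an unadjusted p under 0.05, in either direction. As for Pigr, 13 of the 20 had a strain difference that fell from 2M to 6M. That fall was called for 9.09% of all genes tested. Cldn4, a tight junction gene, differed by 4.72 (SE 0.41) at 2M, and Elf5, an epithelial transcription factor, by -1.05 (SE 0.07).

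T cell and macrophage genes were higher in NOD.H-2b as well, where 12.0%, 15.6% and 18.8% of all genes tested were called higher at 2M, 4M and 6M. Of the T cell list, 11 of 11, 12 of 12 and 12 of 12 tested genes were called at 2M, 4M and 6M, among them Cd8b1, a chain of the CD8 coreceptor (7.22 at 6M, SE 0.46), and Cd2, an adhesion receptor (6.89, SE 0.34). Its sum was 0.511 to 7.40 CPM in BALB/c and 11.1 to 151 CPM in NOD.H-2b. Of 10 macrophage genes 8, 7 and 8 were called, with Lyz2, a lysozyme gene, at 2.68 at 6M (SE 0.15), and their sum was 71.4 to 176 CPM in BALB/c and 246 to 480 CPM in NOD.H-2b. The 8 adipocyte genes summed to at most 6.74 CPM and the 8 skeletal muscle genes to at most 1.57 CPM in any mouse. Among the salivary gland markers tested, Car6, a secreted carbonic anhydrase that the LG also makes, differed by -2.89 at 2M (SE 0.08) and -3.58 at 6M (SE 0.17) on the log2 scale.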

How the data were processed

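RNA of whole LGs was sequenced after ribosomal depletion. The authors deposited whole-number read counts for Ensembl genes, obtained with cutadapt (trimming), STAR (alignment to GRCm38) and HTSeq (counting). Which annotation release and strand setting were used, and how multiply mapped reads were handled, is not given in the sources used here. The table of log2 values was not used.

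Counts were scaled by TMM, filtered with filterByExpr and compared with edgeR's robust quasi-likelihood test (edgeR 4.0.16, limma 3.58.1, R 4.3.3) with Benjamini-Hochberg adjustment over all genes tested. Each comparison of strains at one age, or of neighbouring ages in one strain, was fitted on its own 6 mice. Calls needed an FDR under 0.05 and a change of at least 2-fold. Strain by age, the change of the strain difference from 2M to 6M, was fitted on all 18 mice and called at an FDR under 0.05. SE were computed as the log2 fold change over the root of F. The 17 isotype shares and ratios used counts per kb of union exon, with 0.5 added per count in log2 ratios, and two-sided exact permutation tests of strain within age (8000 arrangements) and of 2M against 6M within strain (400 arrangements), adjusted over the 17. For 3 mice against 3 the smallest p is 0.1, so no single age was tested this way. A group at 0 counts was set to a floor of 3 counts. Of these steps, the edgeR fits of strain at 2M and of strain by age were tested on simulated data.

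Sequences, coordinates and lengths came from the GENCODE M21 transcripts. Gene names were those of the count table, and 1 list gene was matched through an older symbol in the RefSeq gene table. The genes described and the lists were chosen with earlier results of these data known. Named genes were the 10 described, from each list the 2 with the largest difference at 6M among those called in one direction at all ages and averaging at least 0 in log2 CPM, and for Igha, Ighm, Jchain and Pigr the 5 genes nearest in centred log2 CPM with a mean of at least 3. A gene that this rule named is not reported here. Alternatives were DESeq2 size factors, the upper quartile, scaling without immunoglobulin genes, no filter, a minimum of 10 counts per sample, the Wald test of DESeq2 1.42.0, 1 fit of all 18 mice, the replicate number as a block, each mouse left out, and for shares no division by length, no Ighg2c, no added count and, added after the data were seen, the secreted length. Totals were 49480781 to 103936830 counts. Pairs of replicates differed by a mean chi-square per gene of 17.7 to 91.1, so averaged over genes the spread between mice was larger than counting error. Genes of low and of high count were not looked at apart.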

Additional observations from a re-analysis of the deposited data

Results flagged for a closer look

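The strain difference changed from 2M to 6M for 3 of the 10 genes, by the interaction term of the 18-mouse edgeR fit. Each of the 3 changed downward, and among 19117 genes tested 9.09% were called downward and 7.04% upward. For Igha the change was -2.16 on the log2 scale, for Jchain -1.98 and for Pigr -2.62. With each mouse left out in turn these ranged from -2.57 to -1.89 for Igha, from -2.33 to -1.64 for Jchain and from -2.92 to -2.45 for Pigr. The call was then lost in 7 of 18 cases for Igha, in 8 of 18 for Jchain and in none for Pigr. Groups of 3 mice were too small for a check of single samples within a group.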

How the results depend on the processing

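Under alternative scalings, DESeq2 and the 18-mouse fit, the counts of called genes per comparison stayed within 1.5 times of those given, with these exceptions. With at least 10 counts in every sample 4 genes were higher at 2M, since fewer genes were tested. Without a filter on low counts 1 gene rose and 0 fell between 2M and 4M in NOD.H-2b, and 1 was called lower in strain by age. DESeq2 called 1 gene higher from 4M to 6M in NOD.H-2b and 2 higher in strain by age. The cause of these shifts was not tested, apart from the gene filter. The replicate numbers did not pair the mice: same-numbered mice correlated at -0.299 to 0.298 in their deviations (median 0.0107), and 7 of 18 were closest to a mouse of their own number. With the replicate number as a block, 2 genes rose and 0 fell between 2M and 4M in NOD.H-2b, the change of Igha from 4M to 6M in NOD.H-2b was 0.00014 in place of -0.07, Ighg1 was called at 6M (1.23, adjusted p = 4.3e-05), and Ighd at 2M was not called (adjusted p = 0.0585). With each mouse left out, so that 1 group had 2 mice, 4 to 8 genes were higher at 2M, 0 to 5 rose and 0 to 1 fell between 2M and 4M in NOD.H-2b, 1 to 3 were lower in strain by age, and 4 to 7 of the 17 shares and ratios differed between 2M and 6M. Values that changed sign were all uncalled. From 4M to 6M in BALB/c they ranged from -0.34 to 0.22 (Igha), -0.28 to 0.22 (Ighm), -0.26 to 0.59 (Ighd) and -0.20 to 0.41 (Jchain), and in NOD.H-2b from -0.35 to 0.19 (Igha), -0.17 to 1.07 (Ighg3) and -2.15 to 0.59 (Ighe). In strain by age they ranged from -2.34 to 0.25 (Ighg2c) and -2.27 to 1.84 (Ighe), and Pigr against the epithelial genes changed from 2M to 6M by -0.12 to 0.18. The Ighe share differed between strains by -0.0051 to 0.0058 percentage points and between ages by -0.0103 to 0.0043, and between strains by 5.1e-05 without division by length and 0.00012 with the secreted length. Depth limits Ighe, Ighg3 and the BALB/c values of Ighd and of the Ighg genes at 2M, which rest on few counts.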
